A study of Mus musculus with 400 samples.

Results

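The genes described here are 9 neuropeptide genes of sensory neurons: Calca, Calcb, Tac1, Adcyap1, Gal, Nmb, Sst, Nppb and Nts. They were taken by gene name and not by a threshold on measured values, and all 9 were found among the 24754 genes of the tables. They were measured in single cells sorted for the red fluorescent protein tdTomato from dissociated dorsal root ganglia (DRG) of spinal levels C1 to C8. All 6 donors were naive and 6 to 12 weeks old. They carried Nav1.8-Cre with the reporter allele R26CAG-floxStop-tdTomato (strain Nav1.8-Cre.Ai14). In these animals Cre recombinase under control of the Nav1.8 gene (Scn10a) switches on the reporter, so a cell is marked if it or a precursor used that gene, and neurons that never used it were not collected. There was no treated or control group, and every comparison was made between kinds of cells within the same mice, which are labelled Blue and Red (run 1), Control (run 2), Control1 and Control2 (run 3) and Control6 (run 4).

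Of 394 cells, 371 had 500 or more genes with a value and were used. Control gave 50 of them, Control1 19, Control2 23 and Control6 25, and Blue and Red gave the rest in near-equal numbers. Depth had a median of 30366 counts per cell, with extremes of 918 and 324984. Levels are in CPM (counts per 1 M counts of the cell), and 1 count was worth a median of 32.9 CPM. The summed CPM of 5 neuronal marker genes had a median of 7675 per cell. Satellite glial markers had a median sum of 215 CPM with a highest value of 23797 CPM, and Schwann cell markers had a median of 72.8 CPM. The median sums of macrophage, lymphocyte, endothelial, fibroblast, mural and erythroid markers were 0.

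Neuropeptides are cut from larger precursor proteins, packed into dense-core vesicles and released from both the central and the peripheral ends of sensory neurons. Calca and Calcb encode the alpha and beta forms of calcitonin gene-related peptide (CGRP), a vasodilator and a classical mark of peptidergic nociceptors. Tac1 encodes substance P, which acts on the neurokinin receptor Tacr1, and Adcyap1 and Gal encode PACAP and galanin. Nmb encodes neuromedin B and Nppb encodes B-type natriuretic peptide, both known as itch transmitters of the spinal cord. Sst encodes somatostatin and Nts encodes neurotensin.

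On the mouse build GRCm38 (mm10), with GENCODE vM21 positions, Calca lies on the minus strand at chr7:114631478-114636357 and Calcb on the plus strand at chr7:114718643-114723365, 82285 bases further on. The others are Tac1 at chr6:7554879-7565834, Adcyap1 at chr17:93199017-93206537, Gal at chr19:3409915-3414544, Nmb at chr7:80902227-80905076, Sst at chr16:23889573-23890958, Nppb at chr4:147985788-147987205 and Nts at chr10:102481756-102490486. Calca and Calcb are near-copies in the stretch that codes for mature CGRP, which matters because the counting has to tell them apart. The stretches are those of transcripts Calca-201 (bases 402 to 512) and Calcb-201 (bases 337 to 447) of GENCODE vM21, 5′ to 3′, with the bases that differ in capitals.
Calca: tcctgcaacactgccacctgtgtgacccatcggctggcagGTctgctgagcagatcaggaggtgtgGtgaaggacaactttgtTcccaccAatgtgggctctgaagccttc
Calcb: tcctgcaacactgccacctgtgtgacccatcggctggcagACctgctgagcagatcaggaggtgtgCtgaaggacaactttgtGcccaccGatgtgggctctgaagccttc
Over 37 codons 5 bases differed, an identity of 95.5%, and 3 codons gave another amino acid. Of 1678 distinct windows of 50 bases counted in Calca transcripts, 12 also occurred in Calcb, and of windows of 75 bases 0 did. Values that were fractions of a count made up 1.8% of the low values of Calca and 4.65% of those of Calcb. In the other peptide genes they ran from 0 (as in Adcyap1) to 1.21% (Tac1). Such fractions can arise where genes share reads, which was not tested here, and both CGRP genes carry that uncertainty.

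Sst, Nppb and Nts shared cells, as described below, and the letters upstream of their starts were therefore compared. Promoter entries of RefSeq (build GRCm38.p6) were matched for 8 of the 9 genes, with 9 entries. The 250 bases before each start were searched on both strands for TGACGTCA (the cyclic AMP response element, CRE), TGANTCA (the AP-1 element) and TATAAA (the TATA element). The capitals mark the match in each window of 30 bases, written 5′ to 3′ on the strand of the gene.
Sst, minus strand, chr16:23890874-23890903: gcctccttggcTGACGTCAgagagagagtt
Nppb, plus strand, chr4:147985857-147985886: actcagccccagTATAAAaggcagaggcac
Nts, minus strand, chr10:102490608-102490637: caactctttctgTGAGTCAgaaatcctgag
Distances are to the start site of the RefSeq entry. The GENCODE genes of Sst and Nppb given above begin further upstream, so the windows of these genes lie inside their GENCODE extent. The CRE began 48 bases before the RefSeq start of Sst and was found in no other of these genes, against 1.55% of all 32851 promoters. The TATA element began 31 bases before the RefSeq start of Nppb and was also in 1 Adcyap1 entry, against 12.4% of all promoters. The AP-1 element began 207 bases before the RefSeq start of Nts, against 6.75% of all promoters. None of the 3 motifs was found in more than 1 of these windows of Sst, Nppb and Nts, and a match is a run of letters, not a measured binding site.

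How widely each gene was used was asked first, calling a cell positive at 100 CPM or more. Calcb was positive in 291 of 371 cells (78.4%, exact 95% interval 73.9 to 82.5), Nmb in 274 (73.9%), Calca in 249 (67.1%) and Tac1 in 203 (54.7%). Adcyap1 was positive in 98 cells (26.4%), Gal in 60 (16.2%), Nts in 48 (12.9%), Nppb in 46 (12.4%) and Sst in 43 (11.6%). The first 4 genes were thus found in most cells and the last 3 in about equally few. Intervals for shares cover counting error only. Divided by the exon bases of each gene, mean levels over kept cells were highest for Calca (2132 CPM per kb), followed by Nmb (412), Tac1 (322), Calcb (283), Sst (188), Nts (105.4), Adcyap1 (96.3), Nppb (89.7) and Gal (71.96). This order assumes that counts grow with exon length, which the sources used here do not state for the library method.

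Over the 6 mice, the mean level of Calca over all kept cells ran from 1675 to 4357 CPM (median of mice 2519) and that of Tac1 from 447 to 1498 CPM (median 668). Calcb ran from 274 to 415 CPM and Nmb from 313 to 417 CPM. The first pair thus varied more among mice than the second, with its highest values in Blue and Red of run 1. Calca was at 4270 and 4357 CPM in these and at 2528 CPM or less in the other mice. For Tac1 the values were 1186 and 1498 CPM against 724 CPM or less. Run and mouse cannot be told apart here. A single cell of Blue held 27.6% of all Nts, at 13463 CPM, and without it the mean over cells fell from 132 to 95.5 CPM. That cell had 7502 counts, no count of the other 8 genes and a neuronal marker sum of 11197 CPM, with endothelial markers at 0.

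Most cells carried several peptide genes at once. The median was 3 of 9 positive genes per cell, and 171 of 371 cells had 4 or more. No peptide gene was positive in 8 cells (2.16%, exact 95% interval 0.935 to 4.2), 1 was in 20 cells, 2 in 52, 3 in 120, 4 in 79, 5 in 42 and 6 in 49. A single cell had 8. Of 512 possible combinations 42 occurred, and the 5 commonest held 232 cells (62.5%). These were Calca, Calcb and Nmb (91 cells), the 6 genes from Calca to Nmb (47 cells), Calca, Calcb, Tac1 and Nmb (46 cells), Calcb with Tac1 (26 cells), and the 6 without Gal (22 cells). All but Calcb with Tac1 were seen in all 6 mice, and that one in 5.

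**Figure D1:**
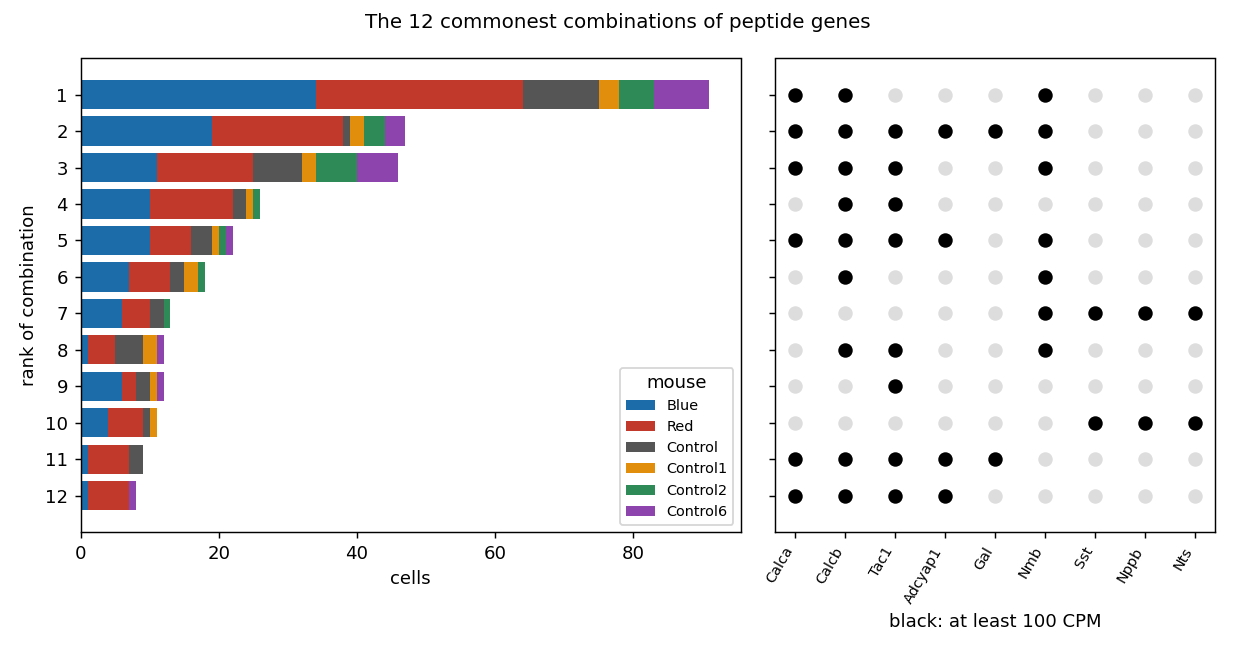
The 12 commonest combinations of peptide genes. Bars give the number of cells (x axis) with a combination, coloured by mouse, and black dots name the genes at 100 CPM or more. The commonest, Calca with Calcb and Nmb, held 91 cells, and Sst, Nppb and Nts appear together in ranks 7 and 10 without Calca, Calcb or Tac1.

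The sharing was largely nested for Gal within Adcyap1, and for Adcyap1 within Calca and Tac1, but not between Calca and Tac1. Of 60 Gal-positive cells, 60 were positive for Tac1 and 59 for Adcyap1, Tac1 and Calca together (98.3%, exact 95% interval 91.1 to 100). Of 98 Adcyap1-positive cells, 97 were positive for Calca and 92 for Tac1, but only 59 for Gal (60.2%). Of 203 Tac1-positive cells, 141 were positive for Calca (69.5%) and 92 for Adcyap1 (45.3%). Read in the other direction, 141 of 249 Calca-positive cells had Tac1 (56.6%). The cells of neither Calca nor Tac1 thus lay within those of the other.

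Each of the 36 pairs was tested by mouse, as the share of cells positive for the second gene among cells positive for the first, minus that among cells negative for it. With 6 mice an exact two-sided sign-flip test cannot go below p = 0.03125. After Benjamini-Hochberg adjustment over 36 pairs, 0 pairs passed 0.05. At an unadjusted p under 0.05 there were 15, all at this smallest value and with an adjusted p of 0.075, and in each the sign was the same in 6 of 6 mice. Gal was positive in 57.9% of Adcyap1-positive and 0.926% of Adcyap1-negative cells, a difference of 56.99 points ± 12.9 (SD, n = 6, exact sign-flip p = 0.03125). Adcyap1 was positive in 37.9% of Tac1-positive and 5.38% of Tac1-negative cells (32.5 points ± 14.8, higher in 6 of 6 mice). For Calca and Tac1 the difference was -4.15 points ± 19.2, with 3 mice on each side of 0 (exact sign-flip p = 0.844 with n = 6).

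The positive cells of Tac1 fell into unlike kinds. In the 92 cells positive for Adcyap1 and Tac1, the mean Tac1 level of the 6 mice ran from 2412 to 4500 CPM. In the 62 cells positive for Tac1 but not Calca it ran from 199 to 536 CPM, so the ranges of the mice did not overlap. In the first set Calca ran from 6201 to 11747 CPM in the 6 mice. Of the second set 31 cells lay in the Th gate and 11 in the Mrgprd gate described below, and of the first 84 of 92 lay in no gate. Neither set held the 46 cells positive for Calca, Calcb, Tac1 and Nmb alone, 41 of them in the Mrgprd gate. A single cell, positive for Tac1 and Adcyap1 alone, was in both sets. Both sets were picked by Tac1 itself, so these levels are a description with no test.

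Sst, Nppb and Nts were mostly found together. Of 43 Sst-positive cells, 43 were Nppb-positive, and of 46 Nppb-positive cells, 43 were Sst-positive (93.5%) and 42 Nts-positive (91.3%). Of 48 Nts-positive cells, 42 were Nppb-positive (87.5%). Of the 52 cells positive for any of them, 39 had all 3 (75%, exact 95% interval 61.1 to 85.97), and such cells were found in all 6 mice. Only 5 mice had enough positive cells for the pair tests among them, which then cannot go below p = 0.0625. Nppb was positive in 100% of Sst-positive and 0.609% of Sst-negative cells, a difference of 99.4 points ± 0.937 (SD, n = 5, exact sign-flip p = 0.0625).

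In these 39 cells Sst had a mean of 1226 CPM ± 397, Nppb of 555 CPM ± 214 and Nts of 577 CPM ± 133 (SD over the 5 mice with at least 3 such cells). Calcb was positive in 2 of the 39 (5.13%) and in 287 of the 319 cells with none of the 3 genes (89.97%). Calca was positive in 7 of the 39 (17.9%) against 239 of 319 (74.9%), Adcyap1 in 1 against 97, and Gal in 1 against 59. Nmb differed less, at 24 of 39 (61.5%) against 246 of 319 (77.1%). By mouse, the share of Nts-positive cells was 1.21% among Calcb-positive and 61.2% among Calcb-negative cells, -60.0 points ± 8.72 (SD, lower in 6 of 6 mice, exact sign-flip p = 0.03125 with n = 6).

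**Figure D2:**
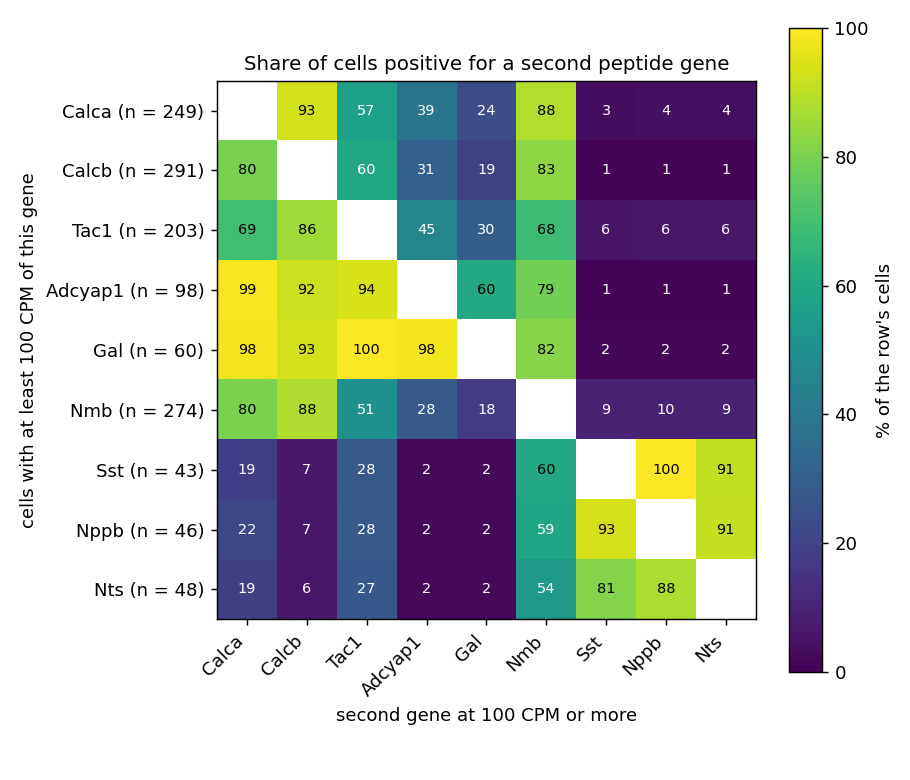
Share of cells (colour and number, in %) positive for the gene of the column among the cells positive for the gene of the row, at 100 CPM or more, over all kept cells. Rows Gal and Adcyap1 are high in columns Calca, Calcb and Tac1, and rows Sst, Nppb and Nts are high in each other's columns, from 81 to 100%.

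As a description over the 371 cells after removal of mouse means, the Pearson correlation of log2(CPM + 5) was 0.94 for Sst with Nppb, 0.85 for Nppb with Nts and 0.83 for Adcyap1 with Gal. It was -0.72 for Calcb with Nts and 0.56 for Calca with Calcb. The genes most like each peptide gene were sought by the same measure among 6826 genes. They were Il31ra (the interleukin 31 receptor chain, 0.89), Ptprk (0.87) and the serotonin receptor gene Htr1f (0.85) for Nppb. For Sst they were Ptprk (0.88), Ildr2 (0.87) and Htr1f (0.87), and for Nts Htr1f (0.85), Il31ra (0.84) and Ildr2 (0.83). Adcyap1 was most like the receptor kinase gene Kit (0.86), the neuropeptide Y receptor gene Npy1r (0.85) and the GDNF family receptor gene Gfra3 (0.83), and Gal like Npy1r (0.79), Kit (0.75) and Gpx3 (0.72). Tac1 followed Npy1r (0.68), Gfra3 (0.65) and Gpx3 (0.63). Calca followed the growth cone gene Gap43 (0.81), Tmem100 (0.72) and S100a11 (0.70). Calcb followed the protein kinase A subunit gene Prkar2b (0.73), Ptprf (0.73) and Cd44 (0.69), and Nmb followed Dkk3 (0.72), F2rl2 (0.67) and Nrn1l (0.65). The points of each correlation share libraries and depth.

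The cells were next gated by 4 genes that mark known kinds of DRG neurons. Mrgprd at 200 CPM or more (32 cells of Blue, 35 of Red, 18 of Control, 8 of Control1, 9 of Control2 and 11 of Control6) and Mrgpra3 at 50 CPM or more (47 cells in all) encode receptors of non-peptidergic nociceptors and of an itch-sensing class. Th at 100 CPM or more (39 cells) encodes tyrosine hydroxylase of C-low-threshold mechanoreceptors, and Nefh at 500 CPM or more (26 cells) encodes the heavy neurofilament of large, myelinated neurons. In no gate were 154 cells, and 8 were in 2 gates. The gates were drawn through gaps for Mrgprd (highest value outside 138 CPM, lowest inside 253 CPM) and less clearly for Th (99.1 and 109 CPM), Mrgpra3 (43.04 and 60.7 CPM) and Nefh (476 and 506 CPM). Median depth was 46146 counts in the Mrgprd gate, 38556 in the Mrgpra3 gate, 32442 in the Th gate, 67460 in the Nefh gate and 18917 in no gate.

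**Figure D3:**
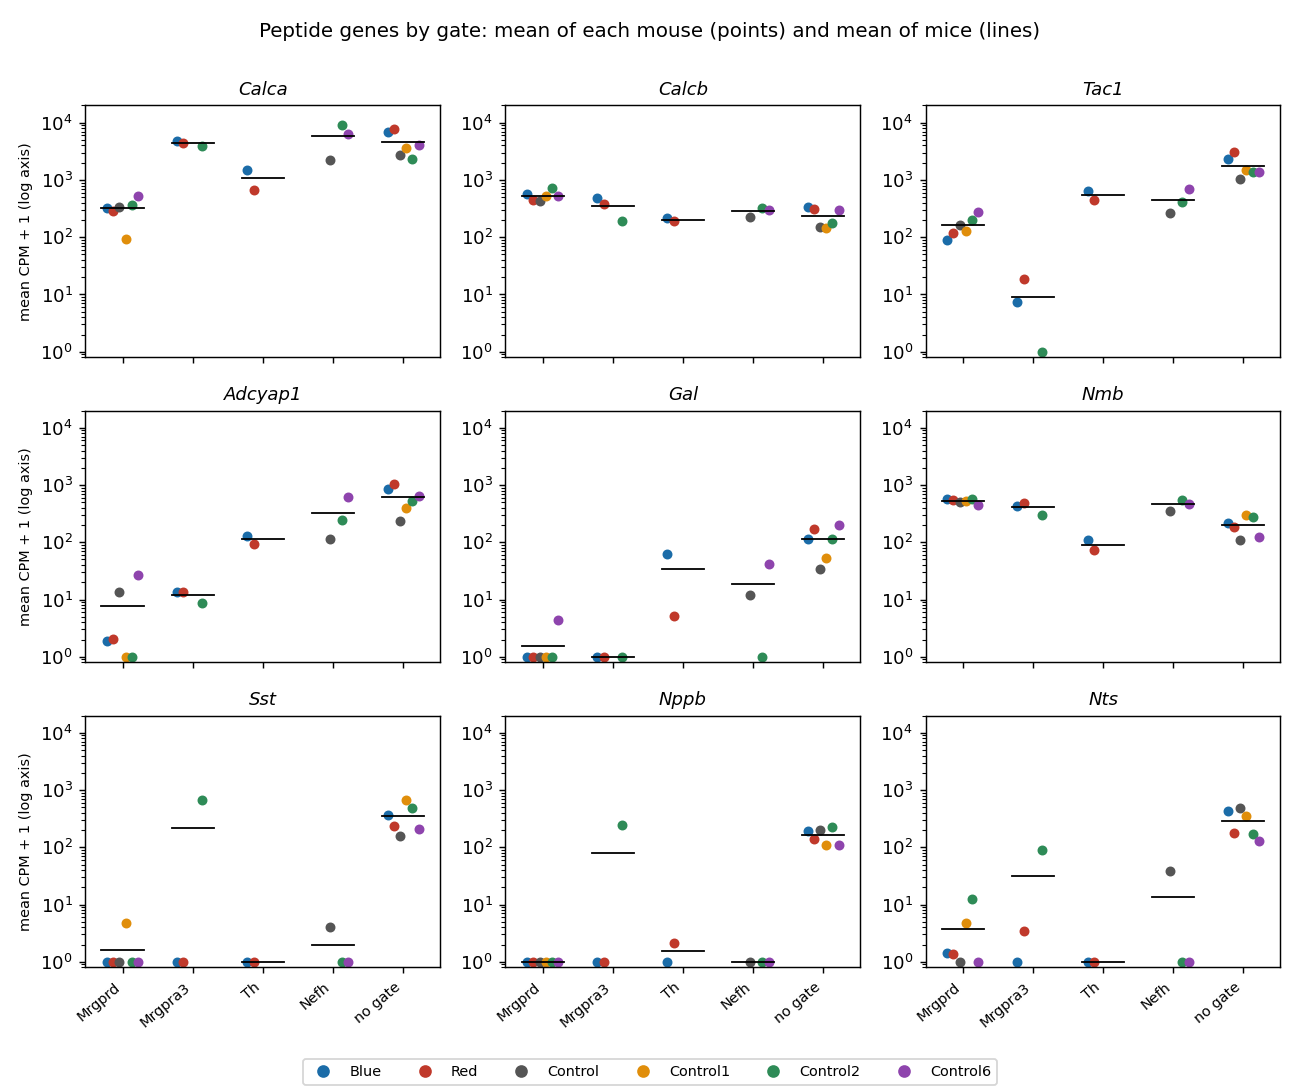
Mean CPM + 1 (log axis) of each peptide gene by gate. Points are mice with at least 3 cells in the group and lines are means of mice. Adcyap1, Gal, Sst, Nppb and Nts are at 25.8 CPM or less in the 6 mice of the Mrgprd gate and at 33.7 CPM or more in the cells of no gate.

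In the Mrgprd gate, Calcb and Nmb were higher and the other 7 genes lower than in the remaining cells of the same mice. The test was limma on log2(mean CPM + 5) per mouse and side with mouse as a block, and it called 22.1% of 9065 genes in either direction, 9.7% higher and 12.4% lower. All 9 peptide genes passed a Benjamini-Hochberg adjusted p of 0.05 and moved one way in 6 of 6 mice, with a median difference of -3.75 against -0.03 over all genes tested. Of these, Adcyap1, Gal, Sst, Nppb and Nts lay under 10 CPM inside and entered the test only through their level outside. The same held for Tac1 and Gal in the Mrgpra3 gate, Sst, Nppb and Nts in the Th gate, and Sst and Nppb in the Nefh gate. All differences below are on this scale, on which the pseudocount understates the change of low genes.

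Calcb was at 570 CPM inside and 337 CPM outside the gate in Blue, 440 and 306 in Red, 422 and 190 in Control, 524 and 153 in Control1, 724 and 216 in Control2, and 521 and 309 in Control6. Every mouse was higher inside, and no mouse outside reached the lowest value inside. The difference was 1.10 (SE 0.15, limma adjusted p = 6.35e-05). Nmb was at 528 CPM ± 48.03 inside and 244 CPM ± 42.6 outside (SD, n = 6 mice), a difference of 1.11 (SE 0.09, limma adjusted p = 4.72e-07). Nmb was positive in 98.2% of gated cells and Calcb in 97.3%. With every cell thinned to 5000 counts, the share with any count was 90.99% for Nmb and 89.2% for Calcb in the gate, and 56.1% for both in the cells of no gate.

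Calca was at 328 CPM inside and 5611 CPM outside in Blue, 287 and 5889 in Red, 342 and 2424 in Control, 93.3 and 2829 in Control1, 358 and 3924 in Control2, and 516 and 4076 in Control6. All inside values lay below all outside values, with a difference of -3.75 (SE 0.21, limma adjusted p = 9.22e-09). The gene was low there but not missing: 72.6% of gated cells were positive, with a median of 196 CPM. Within single cells, Calcb exceeded Calca in 79.6% of cells of the Mrgprd gate, in 28 of 39 of the Th gate (71.8%), in 13 of 154 cells of no gate (8.44%), in 2 of 26 of the Nefh gate and in 0 of 47 of the Mrgpra3 gate. Since each ratio is between 2 genes of unlike length, only its differences between groups can be read.

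**Figure D4:**
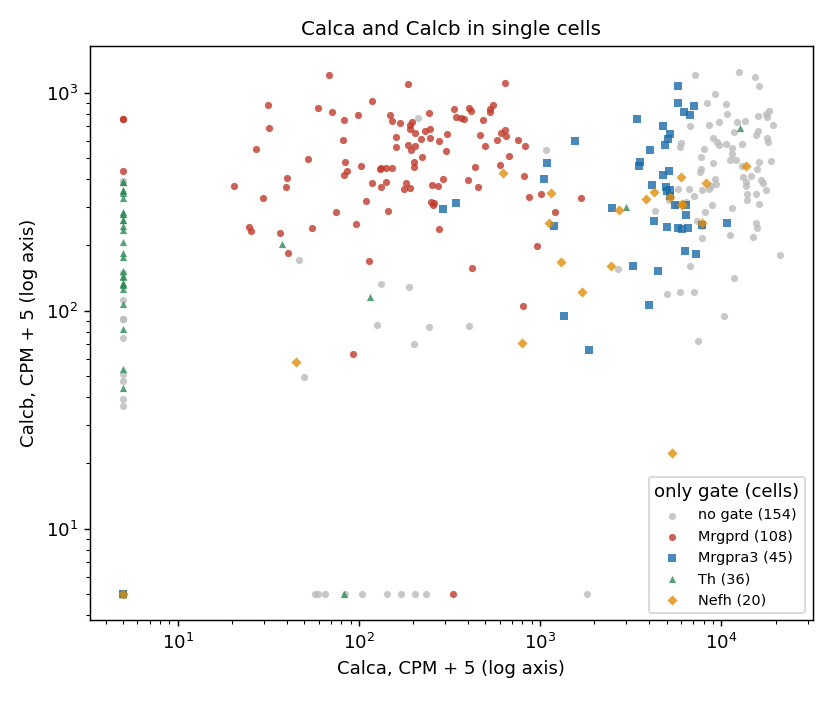
Calca (x axis) and Calcb (y axis) in single cells, CPM + 5 on log axes, coloured by the gate for cells in exactly 1 gate or none. Most cells of the Mrgprd gate lie below 1000 CPM of Calca and most of the Th gate lie at 0 of Calca.

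Tac1 had a mean of 161 CPM ± 67.01 inside the Mrgprd gate and 1169 CPM ± 531 outside (SD, n = 6), a difference of -2.80 (SE 0.28, limma adjusted p = 2.53e-06). The shares of positive cells lay closer, 47.8% inside and 57.8% outside. Outside, the median was 244 CPM and the 90th percentile 4908 CPM, so the mean there drew on the part of the cells with high Tac1. Much of that part was in the 154 cells of no gate described above, whose median was 2093 CPM. With log values averaged over cells, the difference was -0.63 (limma adjusted p = 0.18), and without cells high in satellite glial RNA it was -1.71 (adjusted p = 0.116), so the call rests on these choices. Adcyap1 was lower by more, -5.41 (SE 0.39, limma adjusted p = 1.32e-07), and positive in 2 gated cells. Gal, Sst and Nppb were positive in 0 gated cells and Nts in 1, with differences of -3.57, -5.16, -4.30 and -4.51 (limma adjusted p between 1.1e-08 and 4.33e-07). Nppb had no count in any gated cell, which allows a share of cells with a count of up to 2.65%. Such limits are on cells with a count at this depth, not on cells that use the gene. Against 3 counts over the gate, its pooled level outside was at least 118.5-fold higher.

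In the Mrgpra3 gate, 3 mice had enough cells (Blue 19, Red 19, Control2 3). Calca and Nmb were each positive there in 46 of 47 cells (97.9%), while Tac1, Adcyap1 and Gal were lower than elsewhere. Of the 9 genes 3 passed the test as lower, where 3.56% of 8964 genes were called, 2.22% lower and 1.34% higher. The median difference of the 9 was -2.72 against -0.07 over all genes. That median is the value of Sst, which did not pass. As given above, Tac1 and Gal entered the test only through their level outside, so the median is no support for a trend of the 9 genes.

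Calca was at 4860 CPM in Blue, 4460 in Red and 3947 in Control2 inside the gate, and at 3607 CPM ± 1121 (SD, n = 3) outside. It was higher inside in 3 of 3 mice, a difference of 0.34 (SE 0.15, limma adjusted p = 0.316) that did not pass the test. This depends on the settings: with edgeR it was 0.53 and passed (edgeR adjusted p = 0.000571). Against the cells of no gate it turned to -0.17 (limma adjusted p = 0.781). With mice of at least 2 gated cells, a choice made after seeing the data that brings in all 6, it was 0.25 (limma adjusted p = 0.555). Among these, Control1 with 2 gated cells was lower inside, at 844 CPM against 1775 CPM. The means hide a difference in spread: the median cell had 4890 CPM inside and 228 CPM outside. Calcb (-0.24, SE 0.31) and Nmb (0.24, SE 0.25) also did not pass (limma adjusted p = 0.707 and 0.656), and the direction of both turned under other settings. Calcb was at 0.25 without Control2, -0.53 without Blue and -0.46 without Red, and Nmb at 0.62, 0.12 and -0.030, each from 2 mice.

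Tac1 was positive in 1 of 47 cells of this gate and in 202 of 324 others. Its mean was 6.26 CPM in Blue, 17.5 CPM in Red and 0 in Control2, against 1266 CPM ± 566 outside (SD, n = 3). No mouse came near its outside value, with a difference of -6.76 (SE 0.20, limma adjusted p = 0.000483). Adcyap1 differed by -4.67 (SE 0.23, limma adjusted p = 0.0019) and was positive in 0 of 47 cells, although 15 of them had a count. Gal had no count in 47 cells, which allows a share of cells with a count of up to 6.38%, and its pooled level outside was at least 22.1-fold higher than 3 counts over the gate. Its fitted difference was -3.79 (SE 0.37, limma adjusted p = 0.00907), and with cells thinned to equal depth it was -3.89 (SE 0.97, adjusted p = 0.183).

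Sst, Nppb and Nts did not pass in the Mrgpra3 gate (limma adjusted p = 0.384, 0.377 and 0.233). Sst was at 0 in Blue and Red and at 660 CPM in Control2, where 1 of 3 gated cells carried it together with Nppb and Nts. Leaving out Control2 gave differences of -5.06, -4.22 and -4.68, leaving out Blue gave -1.39, -1.23 and -1.65, and leaving out Red gave -1.72, -1.46 and -2.59. Each such fit rests on 2 mice, so no p-value is given. With mice of at least 2 gated cells, a choice made after seeing the data that brings in all 6, they were -3.55, -2.83 and -3.69 (limma adjusted p = 0.0194, 0.0275 and 0.00489, lower in 5 of 6 mice).

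In the Th gate only Blue and Red, both of run 1, had at least 3 cells (16 each). Calca and Nmb were missing from most of these cells and Tac1 was present in most of them. The fit called 28.7% of 9085 genes, 14.3% higher and 14.4% lower, and called all 9 peptide genes lower, with a median of -2.14 against 0.02 over all genes. For Gal this rests on Red alone, as given below, and Sst, Nppb and Nts entered the test only through their level outside. With 2 mice the spread of each gene was taken from that of all genes together, so these p-values are not given. The values are therefore given with those from the 5 mice of at least 2 gated cells, an alternative added after seeing the data.

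Calca was at 1479 CPM in Blue and 666 CPM in Red inside the gate, against 4675 and 4885 CPM outside. The mean came from few cells: 6 of 39 were positive (15.4%) and the median was 0, against 243 of 332 positive outside (73.2%). The Th and Nefh gates shared 3 cells, all positive for Calca, Adcyap1 and Nmb, and these are among the positive cells counted here. The difference of Calca was -2.26, and -3.58 with 5 mice (limma adjusted p = 0.0423, lower in 4 of 5). With the gate drawn at a 0.5-fold threshold, which brought in 4 mice, Calca was at -0.92 and did not pass (limma adjusted p = 0.388). Of the 9 genes only Calcb (-1.02), Nmb (-1.38) and Nppb (-2.32) passed there (adjusted p between 0.0178 and 0.0474), and the others were lower without passing. In Control2, both gated cells averaged 3644 CPM, above the 2422 CPM outside. Nmb was at 106.6 and 71.2 CPM inside and 356 and 348 CPM outside, a difference of -1.95 (with 5 mice -2.29, limma adjusted p = 0.0048, lower in 5 of 5). It was positive in 6 of 39 gated cells and in 268 of 332 others. Calcb was lower too, at 212 and 192 CPM inside against 423 and 364 CPM outside (-0.94, with 5 mice -0.89, limma adjusted p = 0.00295), yet positive in 30 of 39 cells.

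Tac1 turned direction with the way cells were averaged. Inside the Th gate 34 of 39 cells were positive (87.2%) with a median of 408 CPM, and outside 169 of 332 (50.9%) with a median of 103.8 CPM and a 90th percentile of 4286 CPM. The mean was lower inside (630 CPM against 1267 CPM in Blue, 452 against 1647 in Red, difference -1.43, with 5 mice -1.23 and limma adjusted p = 0.0141). With log values averaged over cells, the gate was higher by 1.32. Sst and Nts had no count in the 39 cells, which allows a share of cells with a count of up to 7.69%, and pooled levels outside were at least 33.6-fold and 25.1-fold higher than 3 counts over the gate. Nppb was positive in 0 cells, Gal in 1 and Adcyap1 in 5, the last including the 3 cells shared with the Nefh gate. Gal was at 61.10 CPM inside and 61.13 CPM outside in Blue, where 1 gated cell had 978 CPM. In Red it was at 4.22 and 88.1 CPM, and its call was lost under 3 of 15 alternatives. Beside these results, the 5 mural cell markers summed to a mean of 615 CPM in this gate and 399 CPM in the Mrgpra3 gate, against 144 CPM over all kept cells. The marker Myh11 was at 0 in the first and Tagln in the second, and the part of mural RNA in the results was not tested.

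The Nefh gate held 26 cells, 17 of them from Control, and 3 mice entered the test (Control, Control2 and Control6, with 17, 3 and 3 cells). Calca was higher and Sst, Nppb and Nts lower than in other cells. These 4 of the 9 genes passed the test, where 8.79% of 9284 genes were called, 4.21% higher and 4.58% lower. The median of the 9 was -0.45 against -0.05 over all genes. That median is the value of Tac1, which did not pass, and Sst and Nppb entered the test only through their level outside. Satellite glial markers summed to a mean of 3348 CPM in this gate against 429 CPM in the Mrgprd gate, and all 5 were detected. Schwann cell markers summed to 1984 CPM against 179 CPM, and erythroid markers to 129.9 CPM against 3.67 CPM. The median erythroid sum in the Nefh gate was 9.91 CPM and the highest cell had 3065 CPM, so that mean was far above the typical cell. The part of glial, Schwann cell and erythroid RNA in the result was not tested. No fit could be made once cells high in satellite glial markers were left out.

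Calca was at 2190 CPM inside and 1409 CPM outside in Control, 9023 and 1554 in Control2, and 6285 and 1995 in Control6. All 3 mice were higher inside (difference 1.61, SE 0.22, limma adjusted p = 2.77e-05), and 23 of 26 gated cells were positive. Adcyap1 was at 111.2 CPM inside and 100.6 CPM outside in Control, 247 and 188 in Control2, and 608 and 219 in Control6, which did not pass (0.66, SE 0.26, limma adjusted p = 0.14). Against the cells of no gate it was -0.74, so its direction depends on the cells compared. Nmb (0.48), Calcb (-0.41), Tac1 (-0.45) and Gal (-1.35) did not pass either (limma adjusted p between 0.171 and 0.283). Sst was positive in 0 of 26 cells, Nppb in 0 and Nts in 1, with differences of -4.26, -3.92 and -3.18 (limma adjusted p between 8.78e-06 and 8.0e-05). These 3 calls were lost with thinned cells (-4.61, -3.89 and -3.38), without the filter on low values, where the differences are the same by construction, or with averaged log values (-0.75, -0.82 and -0.90), with limma adjusted p between 0.0724 and 0.35. That of Nts was also lost at a 0.5-fold gate threshold (-2.14, adjusted p = 0.23), and that of Calca without the filter (adjusted p = 0.174).

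**Figure D5:**
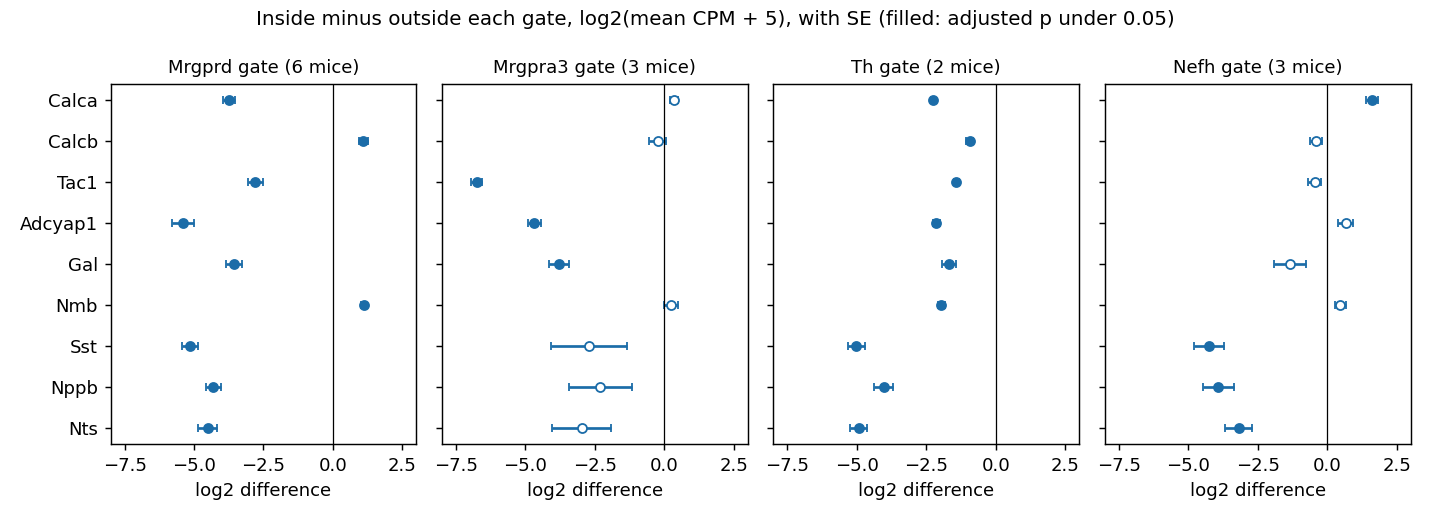
Difference inside minus outside each gate on log2(mean CPM + 5) (x axis) for the 9 genes, with the SE from limma as bars. Filled points passed an adjusted p of 0.05: 9 in the Mrgprd gate, 3 in the Mrgpra3 gate, 9 in the Th gate (2 mice, with a spread pooled over genes) and 4 in the Nefh gate.

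The cells in no gate had the highest mean over cells for 7 of the 9 genes, the exceptions being Calcb (290 CPM, against 510 CPM in the Mrgprd gate) and Nmb (196 CPM against 539 CPM). Per mouse, Calca ran there from 2289 to 7687 CPM, Tac1 from 1029 to 3051 CPM, Adcyap1 from 237 to 1021 CPM and Gal from 33.7 to 196 CPM. Sst ran from 158 to 662 CPM, Nppb from 108.3 to 229 CPM and Nts from 125.8 to 493 CPM. A cell of no gate had a mean of 4.36 positive genes, against 3.19 in the Mrgprd gate, 2.98 in the Mrgpra3 gate, 2.10 in the Th gate and 3.31 in the Nefh gate. By mean of mice, Calca was highest in the Nefh gate (5833 CPM ± 3439, SD, n = 3), then in no gate (4569 ± 2227, n = 6), the Mrgpra3 gate (4422 ± 458, n = 3), the Th gate (1073 ± 575, n = 2) and the Mrgprd gate (321 ± 136, n = 6). These means are over different mice. The ranges of mean ± SD of the first 3 overlapped, and the last 2 means lay below them. Over cells, no gate was highest (6324 CPM, against 4355 CPM in the Mrgpra3 gate and 4115 CPM in the Nefh gate), and within Control no gate (2732 CPM) was above the Nefh gate (2190 CPM). For Nmb the order was the Mrgprd gate (528 CPM), the Nefh gate (460), the Mrgpra3 gate (404), no gate (199) and the Th gate (88.9), and the steps between the first 3 were smaller than the SD of 101.9 CPM (n = 3) in the Nefh gate. Tac1 had its highest mean in no gate (1780 CPM ± 754) and its lowest in the Mrgpra3 gate (7.94 CPM ± 8.89). The median depth of the ungated cells, given above, was the lowest of these groups, and its part in the number of positive genes was not tested. Of the 39 cells with Sst, Nppb and Nts, 38 were in no gate and 1 in the Mrgpra3 gate.

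The genes that process peptides were measured beside them. Of 15 genes of peptide processing and granules, 14 could be tested in the Mrgprd gate, where 4 were higher, 5 lower and 5 did not pass, against 9.7% and 12.4% of all genes. The granule gene Scg3 was at 2696 CPM ± 479 inside and 815 CPM ± 166 outside (SD, n = 6), a difference of 1.73 (limma adjusted p = 7.96e-10). Cpe, the carboxypeptidase that trims peptide ends, was higher by 1.42, and the convertase gene Pcsk2 by 1.09. The granule gene Scg2 was lower by far, 131 CPM ± 173 against 1956 CPM ± 1209, a difference of -4.44 (limma adjusted p = 2.84e-08). Pam, which amidates peptides such as CGRP and substance P, differed by -0.76 (adjusted p = 9.78e-05).

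In the Nefh gate 1 of 13 tested genes of that list was higher, the convertase gene Pcsk1 (1.87, limma adjusted p = 0.0114), and 2 were lower, Scg3 (-2.62) and Cpe (-0.96), against 8.79% of all genes in either direction. In the Mrgpra3 gate 1 of 13 was lower, Chgb (-1.95, limma adjusted p = 0.0284), where 3.56% of all genes were called, so a single call is near the background. In the Th gate 3 were higher and 5 lower of 13, where 28.7% of all genes were called, with Scg2 (-2.61) and Pcsk2 (-2.38) among those lower. Of 29 receptor genes of the 9 peptides at most 4 reached the mean of 10 CPM needed for the test. Where a gene lay under 10 CPM on 1 side, it entered the test only through the other, and its call is no support for a trend of the list. The galanin receptor gene Galr1 was at 0.361 CPM ± 0.884 inside and 23.8 CPM ± 9.6 outside the Mrgprd gate (-2.36, SD, n = 6, limma adjusted p = 4.9e-05), and the neurotensin receptor gene Sort1 differed by -2.19. Of 48 other peptide genes 1 to 3 could be tested, and only Cartpt passed: it was lower in the Mrgprd gate (-1.71, limma adjusted p = 0.00169), the Mrgpra3 gate (-2.90, adjusted p = 0.0115) and the Th gate (-2.93, 2 mice).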

How the data were processed

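The deposited tables hold, for each gene, 1 signal value per cell, equal to a count times a factor of that cell; the labels' protocols name digital RNA sequencing of sorted cells. Per the submitters' processing notes, STAR 2.7.3a and mm10 were used. Of 400 labelled cells, 394 had a column. The 26 entries with dates for names and Rn45s were left out, and values were scaled to CPM. Counts were recovered from the commonest low value: 97.6% of low values (median cell) were whole within 0.1 and whole reads were claimed in 252 columns; they gave depths, thinning (5000 counts) and the edgeR 4.0.16 alternative.

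Gates were compared with limma 3.58.1 (R 4.3.3) on log2(mean CPM + 5), trended prior, mouse as block, genes averaging 10 CPM or more, gate gene left out, mice with at least 3 cells per side. On data simulated with a fixed spread and no differences among mice, the test recovered most genes changed 4-fold. Those settings are simpler than means over as few as 3 cells, so recovery in these data was not measured. Mice are the replicates. Doublets were not called. Named genes are the 9, up to 3 of smallest p (or of at least 100 CPM) per list and gate, and the 3 most correlated per gene at a mean of at least 20 CPM, without ribosomal, mitochondrial or predicted genes. Members and lists were chosen with earlier results of these data known.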

Additional observations from a re-analysis of the deposited data

Results flagged for a closer look

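Of 26 sets of mouse means of the 9 genes (all kept cells, Mrgprd gate, no gate; sets at 0 in all mice not counted), 3 held a mouse far from the others. Chance flags about 1 in 20 sets, but this rate does not hold for the 3 flagged sets, which lie near 0. For Gal and Sst a single cell with a value set 1 mouse apart from 5 at 0. For Nts only 1 gated cell was positive, in Control2. All 3 were low levels inside the Mrgprd gate: Gal at 3.44 CPM in Control6 with the other 5 mice at 0, Sst at 3.81 CPM in Control1 with the other 5 at 0, and Nts at 11.7 CPM in Control2, the nearest mouse being at 3.81 CPM.

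The 23 cells left out for having under 500 genes had at most 383 counts each and 1545 counts in all. They held 5 counts of Calca in 2 cells, flagged for being above 3 counts, a limit that takes no account of depth. The mean of Calca over kept cells was 3591 CPM, so some counts at that depth are not unusual. In the cells left out Nmb had 1 count and the other 7 genes none.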

How the results depend on the processing

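Of 639 values of single peptide genes under the alternatives, 566 had the same direction and side of the threshold, 22 lost and 38 gained the call, and 13 turned direction. In the Mrgprd gate, 196 of 198 were unchanged in this sense, the 2 exceptions being Tac1. The cause of the changes was not tested. Turned values were, in the Mrgpra3 gate, Calca at -0.17 against ungated cells, Calcb at 0.30 against ungated cells, 0.45 without glia-high cells, 0.17 with mean log values and 0.25 in run 1 alone, and Nmb at -0.26 with at least 2 cells per mouse. Leaving out a mouse there gave -0.53 to 0.25 for Calcb (highest without Control2) and -0.030 to 0.62 for Nmb (lowest without Red). In the Th gate Tac1 was 1.32 with mean log values. In the Nefh gate Calcb was 0.055 at a 0.5-fold gate threshold, 0.49 against ungated cells and 0.49 with mean log values, and Adcyap1 -0.74 against ungated cells.

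Counts of called genes (2000 Mrgprd, 319 Mrgpra3, 2605 Th, 816 Nefh) moved by over 1.5 times as follows. Thinning gave 850, 37, 359 and 177. Mrgprd gave 1108 without glia-high cells, 3045 with mean log values, 3136 in run 1 and 1289 in runs 2 to 4. Mrgpra3 gave 145 with pseudocount 1, about 1.0e2 unfiltered, 1697 with edgeR, 197 against ungated cells, 2013 without glia-high cells and 2262 in run 1 alone. Th gave 484 at the 0.5-fold threshold and 890 with at least 2 cells per mouse. Nefh gave 39 unfiltered, 1315 with edgeR, 376 at the 0.5-fold threshold and 409 against ungated cells. Mean log values moved the higher and lower calls from 879 and 1121 to 2376 and 669 (Mrgprd), 120 and 199 to 199 and 96, 1296 and 1309 to 1509 and 963, and 391 and 425 to 730 and 138. Leaving out a mouse gave 1642 to 2097 (Mrgprd), 354 to 2262 (Mrgpra3, highest without Control2) and 495 to 1020 (Nefh, lowest without Control2). With no replicate block for mouse, the Mrgpra3 count was 482 and the others were within 1.5 times. Pair calls were 0 under all 6 alternatives run. Not possible were leaving out a mouse in the Th gate, runs 2 to 4 alone for Mrgpra3 and Th, run 1 for Nefh, and a 2-fold threshold or no glia-high cells for Nefh. Leaving out a mouse was not run for pairs, where 5 mice cannot go below p = 0.0625. Depth limits shares: 1 count was worth 3.08 to 1089 CPM.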

Other observations

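After the cell at 13463 CPM, the next highest values of Nts were 4142 CPM in a cell of Red and 3268 CPM in a cell of Control, and neither had a count of Sst or Nppb. The Red cell had 22331 counts and a neuronal marker sum of 12808 CPM. The Control cell had 918 counts, the fewest of any kept cell, and a neuronal marker sum of 0.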
